A study of Mus musculus with 2 samples.

Results

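Basal epithelial cells of the mouse prostate were compared between the 2 barcode sets of a single-cell RNA series. Basal cells were chosen by 3 measured values of each cell, a Krt5 level of at least 1.5, a Krt14 level of at least 1 and a Ptprc level of 0. These levels are natural logs of 1 plus the UMIs per 10000 UMIs of the cell, where a UMI (unique molecular identifier) marks 1 captured RNA molecule. The rule chose 1494 of 15742 cells. Of these, 1358 carried the barcode suffix of set 1, where they were 21.4% of 6332 cells (95% exact binomial interval 20.4 to 22.5%). The other 136 carried the suffix of set 2, where they were 1.45% of 9410 cells (1.21 to 1.71%).

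The series holds 2 droplet libraries, one labelled prostatic intraepithelial neoplasia (PIN) and the other prostatic adenocarcinoma (PCa). Both came from R26 mTmG/hAR:Osr1 Cre/+ mice on a mixed C57BL/6 and 129S1/SvImJ background, so no library without the transgene enters here. In these animals Cre from the Osr1 locus switches on a human androgen receptor transgene (hARtg) and turns the mTmG reporter to membrane GFP in cells of the Osr1 lineage. The PIN tissue came from mice 6 months old and the PCa tissue from mice 12 months old, and the labels do not say how many animals were pooled. They also do not say which suffix belongs to which tissue. The number of filtered cells that the methods give for PIN equals the total of set 1, and that for PCa is close to the total of set 2, but totals were not used to name a tissue. The cells are therefore named by set, and set, tissue, age, animal and library cannot be told apart. With 1 library a side no difference could be tested. Genes were called by size, and all intervals are 95% intervals for counting error only.

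Basal cells lie between the luminal cells and the basement membrane of the gland. They hold to it through hemidesmosomes, carry the keratins Krt5 and Krt14 and the transcription factor Trp63, and can act as progenitors in regeneration and in tumour models. MHC class I and class II molecules present peptides to T cells, and interferon-gamma can induce both in epithelium. Wnt signalling works through beta-catenin and TCF factors, and its targets include feedback inhibitors of the pathway such as Axin2, Nkd1, Notum and Znrf3.

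The rule itself fixed that the chosen cells carried the defining keratins. Few rested on single molecules, but more of the set 2 cells lay near the limit. The median basal cell held 17 Krt5 UMIs and 52 Krt14 UMIs in set 1, and 7 and 35 in set 2. At most 2 Krt5 UMIs were found in 16 of the 1358 basal cells of set 1 and 14 of the 136 of set 2. A Krt5 level from 1.5 up to 2 was held by 222 of the 1358 and by 53 of the 136. Just inside the rule, the lowest Krt5 level was 1.504 in set 1 and 1.506 in set 2. Just outside it, the highest was 1.4999 and 1.495, and 168 cells of set 1 and 67 of set 2 met the other conditions with a Krt5 level from 1 up to the limit. More UMIs of the luminal keratins Krt8 and Krt18 than of Krt5 and Krt14 were held by 300 basal cells of set 1 (22.1%, 19.9 to 24.4%) and 40 of set 2 (29.4%, 21.9 to 37.8%). Basal cells were deeper in set 1, with a median of 11686 UMIs against 7998.5, and summed to 20869141 UMIs against 1546819. Mitochondrial genes took 3.62% of the basal UMIs in set 1 and 4.91% in set 2. The sets shared 67 barcode sequences, none of them basal in both.

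RNA from lysed cells enters every droplet, so each gene was also read in leukocytes of the same set (Ptprc above 0 and Epcam at 0), 706 in set 1 and 168 in set 2. A gene was called above the free RNA limit where basal cells of the set with the higher level held at least 3 times as many UMIs per cell as those leukocytes. The leukocytes were not alike in the 2 sets. With every cell thinned to 3000 UMIs, which left out 170 shallower leukocytes of set 1 and 13 of set 2, Cd3e of T cells was found in 60.6% of them in set 1 and 3.87% in set 2, and Lyz2 of macrophages in 6.34% and 81.9%. The limit is therefore a strict one for genes that leukocytes make themselves. It compares UMIs per cell, however, and basal cells were the deeper ones. Their medians were 11686 UMIs against 3803 in leukocytes of set 1, and 7998.5 against 7481.5 in set 2. Depth alone thus made the limit easier to pass, more so in set 1, where it was applied to the lower genes. Luminal cells (Krt8 of at least 2 and Epcam without the basal keratins) and stromal cells (Vim without Epcam, Krt5 or Ptprc) are set beside the basal cells below, and all 4 kinds come from the same 2 libraries.

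Of 5481 genes with at least 20 CPM (UMIs of the gene per 1000000 summed UMIs) in basal cells of either set, 338 were at least 2-fold higher in set 2 (6.17%) and 292 at least 2-fold lower (5.33%). Above the free RNA limit stood 199 of the higher genes (3.63% of those compared) and 199 of the lower ones (3.63%). The other 139 higher genes, 41.1% of the 338, were under 3 times the leukocyte level. With the limit taken in CPM in place of UMIs per cell, 162 higher and 143 lower genes stood above it. The median log2 ratio of set 2 over set 1 across the compared genes was -0.02. A gene could enter the comparison through the set where it was high alone. Genes of antigen presentation and of the proximal gland stood on the lower side, and Wnt targets, alpha-defensins and the hair-type keratins Krt33a and Krt35 on the higher side.

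**Figure D1:**
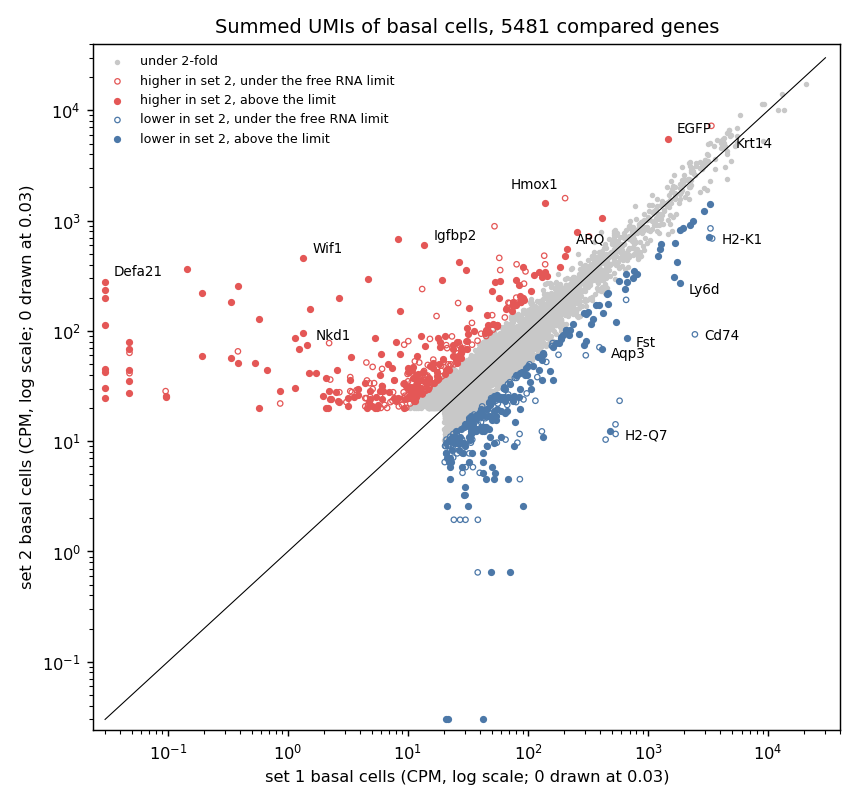
Level of each of the 5481 compared genes in basal cells, with set 1 on the x axis and set 2 on the y axis (CPM, log scales, 0 drawn at the left or lower edge), and the line of equal levels. Filled points are past 2-fold and above the free RNA limit, open points past 2-fold only, and grey points under 2-fold. Cd74, H2-K1 and Ly6d lie below the line, and Wif1, Nkd1 and Igfbp2 above it.

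Genes of antigen presentation were lower in basal cells of set 2 throughout the list. All 13 compared genes of the 15 listed were at least 2-fold lower in set 2, beside 5.33% of all compared genes, with a median log2 ratio of -3.41. In luminal cells the same genes had a median of -5.12, in leukocytes -0.35 and in stromal cells -0.95. B2m and Tapbp were the only 2 of the 13 above the free RNA limit in set 1, since leukocytes carry these transcripts at high levels.

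The promoters of 2 of the class II genes are shown because the Y box, which MHC promoters share, lies in both. The motif was written as CTGATTGG and searched on both strands from 250 bases before to 50 bases after each start in RefSeq's GRCm38.p6. It was present in 5 of the 6 listed class I and class II genes with an entry (H2-Aa, H2-Eb1, H2-K1, H2-D1 and H2-Q7, but not B2m), and in 1346 of all 32851 promoter windows (4.10%). H2-Ab1 had no entry. The sequences run from 160 bases upstream to the last base before the start, with the motif in capitals. That of H2-Aa is chr17:34287824-34287983 on the minus strand, with the motif's first base 51 bases before the start, and that of H2-Eb1 is chr17:34305707-34305866 on the plus strand, with the motif 62 bases before it.
H2-Aa: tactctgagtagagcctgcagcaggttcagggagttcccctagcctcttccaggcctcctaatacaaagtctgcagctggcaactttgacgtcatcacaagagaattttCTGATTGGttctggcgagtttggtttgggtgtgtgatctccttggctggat
H2-Eb1: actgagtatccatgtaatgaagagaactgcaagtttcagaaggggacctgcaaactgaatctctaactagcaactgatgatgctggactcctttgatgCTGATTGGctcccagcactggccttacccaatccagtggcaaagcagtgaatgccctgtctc

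Class I transcripts were lower in most basal cells of set 2 but not missing. B2m, the light chain of every class I molecule, stood at 3232 CPM in basal cells of set 1 and 717 CPM in set 2, a log2 ratio of -2.17 (-2.26 to -2.09). H2-K1, a classical heavy chain (GRCm38.p6 chr17:33996012-34000619), stood at 3416 and 689 CPM, a log2 ratio of -2.31 (-2.40 to -2.22). H2-D1, the other classical heavy chain, stood at 3308 and 851 CPM (log2 ratio -1.96). Cell by cell the levels were lower throughout: the lower quartile, median and upper quartile of H2-K1 were 7.93, 16.5 and 43.0 UMIs per 10000 in set 1 and 3.29, 6.89 and 10.3 in set 2. The non-classical H2-Q7 was nearly absent in set 2, with 18 UMIs in all against 11189 in set 1 (11.6 against 536 CPM), although its reads may be shared with related H2-Q genes. H2-Q7 was lower in every kind of cell, with log2 ratios of -8.03 in luminal cells, -2.15 in leukocytes and -2.08 in stromal cells.

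The genes that make and load class I peptides went the same way. Psmb8, a subunit of the immunoproteasome, stood at 130 CPM in set 1 and 12.3 CPM in set 2 (log2 ratio -3.41, -4.14 to -2.76), and its partner Psmb9 had a log2 ratio of -3.81. Of the peptide transporter, Tap1 had a log2 ratio of -2.94 and Tap2 of -2.58. Tap1 was lower in every kind of cell, with log2 ratios of -3.45 in luminal cells, -2.06 in leukocytes and -1.10 in stromal cells. Tapbp, the loading chaperone tapasin, was the least different at -1.03 (-1.27 to -0.80).

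At 5 or more UMIs per cell, class II transcripts were carried by a large share of the basal cells of set 1 and by 1 basal cell of set 2. Cd74, the invariant chain, stood at 2453 CPM in set 1 and 93.1 CPM in set 2 (log2 ratio -4.72, -4.97 to -4.48). The chains H2-Aa, H2-Ab1 and H2-Eb1 stood at 535, 579 and 443 CPM in set 1 and at 14.2, 23.3 and 10.3 CPM in set 2. Summed over the 4 genes, set 1 basal cells held 83689 UMIs, and set 2 basal cells 218, of which 211 lay in 1 cell. At least 5 such UMIs were found in 556 of the 1358 basal cells of set 1 (40.9%, 38.3 to 43.6%) and in 1 of the 136 of set 2 (0.735%, 0.0186 to 4.03%). Any such UMI was found in 1073 (79.0%) and 7 (5.15%).

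After thinning to 3000 UMIs, which left out 16 basal cells of set 1 and 4 of set 2, at least 3 class II UMIs were found in 34.3% of basal cells of set 1 (31.7 to 36.9%) and 0.758% of set 2 (0.0192 to 4.15%), and unthinned in 48.2% and 0.735%. The leukocytes, with median depths of 3803 and 7481.5 UMIs, went the other way, with 17.4% in set 1 and 58.7% in set 2 after thinning. Leukocytes of set 1 with a Cd3e UMI, which should carry little class II, gave 8.26%. Luminal cells showed 63.4% and 0.398%, and stromal cells 43.5% and 8.33%. The 556 basal cells of set 1 with at least 5 class II UMIs held 83 UMIs in all of Laptm5, Coro1a, Tyrobp, Fcer1g, Cd3e and Rac2, other leukocyte genes, and 30 of these cells held any. Among basal cells without more luminal than basal keratin the thinned shares were 33.0% in set 1 and 0 of 94 cells in set 2 (upper bound 3.85%).

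For class I, summed over B2m, H2-K1, H2-D1 and H2-Q7, at least 10 thinned UMIs were found in 63.9% of basal cells of set 1 (61.2 to 66.4%) and 21.2% of set 2 (14.6 to 29.2%), and unthinned in 95.7% and 78.7%. Luminal cells gave 98.3% and 39.7%, leukocytes 99.8% and 98.7%, and stromal cells 93.3% and 78.5%. The leukocytes of both sets were thus near the top of the scale, where this share cannot show a difference. Basal and luminal cells stood apart between the sets, and stromal cells less so. The median thinned class I UMIs in sets 1 and 2 were 15 and 6 in basal cells and 50 and 8 in luminal cells. They were 40 and 35 in leukocytes and 35 and 18 in stromal cells.

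**Figure D2:**
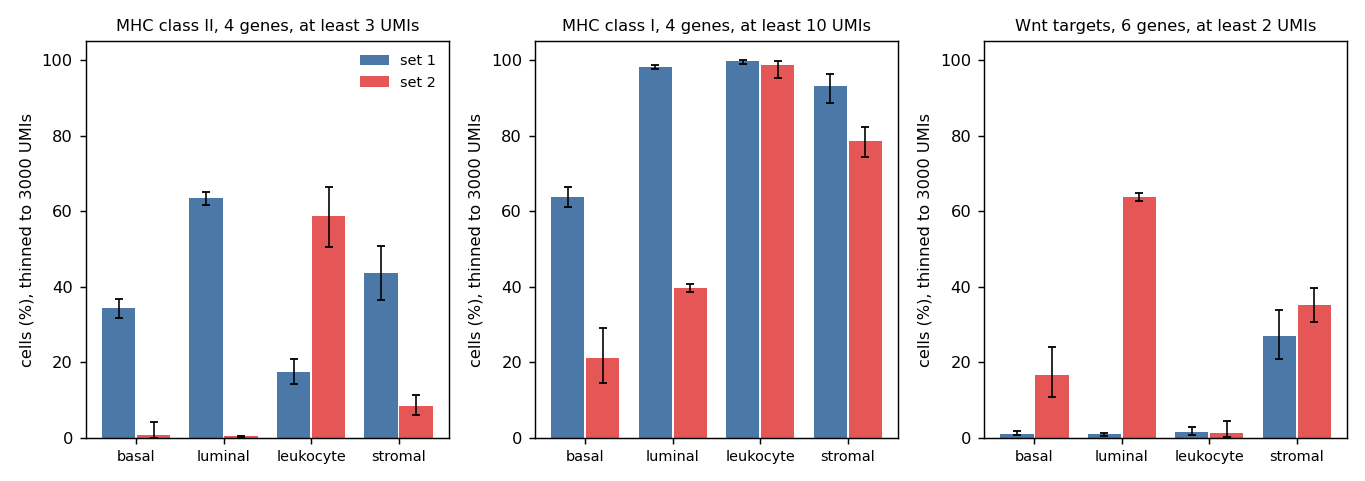
Share of cells (y axis, percent, after thinning each cell to 3000 UMIs) with at least 3 UMIs of 4 class II genes, at least 10 of 4 class I genes, or at least 2 of 6 Wnt targets, for basal, luminal, leukocyte and stromal cells of set 1 (blue) and set 2 (red). Bars on the columns are exact 95% binomial intervals for counting error. The class II share of basal cells is 34.3% in set 1 and 0.758% in set 2, and the Wnt target share is 1.12% and 16.7%.

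Genes that interferons induce were also lower in part. Of 6 compared genes of that list, 5 were at least 2-fold lower in set 2 and none higher (beside 5.33% and 6.17% of all compared genes), with a median log2 ratio of -1.09. Ifitm3, a membrane protein that restricts virus entry, stood at 1278 and 619 CPM (log2 ratio -1.05, -1.14 to -0.95) and was the only one above the free RNA limit. Gbp2, a guanylate-binding protein, had a log2 ratio of -1.68, Isg15, a ubiquitin-like modifier, -1.43, Irf1 -1.13 and Irf7 -1.04, the last 2 being interferon regulatory factors. With every cell weighing the same the log2 ratio of Isg15 was 0.24, and without cells of more luminal than basal keratin the log2 ratio of Irf7 was 0.087. Of 9 compared NF-kB and inflammatory genes 4 were lower (beside 5.33%), 2 of them above the free RNA limit, and none was higher (median -0.85), with the alarmin Il33 at 41.8 and 6.46 CPM (log2 ratio -2.69), and Pigr, which carries IgA across epithelium, had 1907 UMIs in set 1 and 4 in set 2 (log2 ratio -5.14, -7.02 to -3.78).

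Genes of the proximal gland and of progenitor cells formed the other group on the lower side. Of 15 compared genes, 9 were at least 2-fold lower in set 2 and none higher (beside 5.33% and 6.17% of all compared genes), with a median log2 ratio of -1.19, and all 9 stood above the free RNA limit. In luminal cells the median of the same genes was -2.99, in leukocytes -1.53 and in stromal cells -2.66.

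Ly6d, a surface protein that marks castration-tolerant luminal progenitors (GRCm38.p6 chr15:74762056-74763567), stood at 1828 CPM in basal cells of set 1 and 270 CPM in set 2, a log2 ratio of -2.76 (-2.90 to -2.62). A Ly6d UMI was found after thinning in 68.9% of basal cells of set 1 and 18.2% of set 2, beside 4.85% and 1.94% of leukocytes, and unthinned in 82.5% and 25%. The median basal cell held 6.52 Ly6d UMIs per 10000 in set 1 and none in set 2. Ly6d was lower in every kind of cell, with log2 ratios of -2.42 in luminal cells, -2.62 in leukocytes and -2.66 in stromal cells.

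Its neighbours on the list differed less. Aqp3, a water and glycerol channel, stood at 413 and 69.2 CPM (log2 ratio -2.58), and Psca, prostate stem cell antigen, at 1749 and 423 CPM (-2.05). Ly6a, the stem cell antigen Sca-1, stood at 1861 and 818 CPM (-1.19). Sox2, a progenitor transcription factor, had a log2 ratio of -1.66 (-2.58 to -0.87), Ly6c1 of -1.45 and Krt6a of -1.01. Clu, a secreted chaperone, stood at 2239 and 904 CPM (-1.31), and 5 cells held 68.5% of its UMIs in set 2. Aqp3, Psca, Krt6a and Clu were also at least 2-fold lower in luminal cells, leukocytes and stromal cells of set 2. Not past 2-fold were Wfdc2 (-0.82), Lcn2 (-0.68), Ly6e (-0.46), Sox9 (-0.20), Krt13 (-0.05) and Krt4 (0.41).

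Wnt targets stood on the higher side in set 2, and their UMIs lay in few cells. Of 14 compared genes of the 20 in the list of Wnt targets and TCF factors, 9 were at least 2-fold higher in set 2 (beside 6.17% of all compared genes), 7 of them above the free RNA limit, and none was lower. The median log2 ratio was 1.82, and the same genes gave 2.04 in luminal cells, -0.03 in leukocytes and 0.33 in stromal cells.

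Wif1, a secreted inhibitor that binds Wnt ligands (GRCm38.p6 chr10:121034004-121100642), had 28 UMIs in basal cells of set 1 and 704 in set 2, or 1.34 and 455 CPM, a log2 ratio of 8.41 (7.86 to 9.01). It was found in 33 of the 136 basal cells of set 2, and 5 of them held 55.7% of its UMIs. With every cell weighing the same the log2 ratio was 7.91. After thinning a Wif1 UMI was present in 0.373% of basal cells of set 1 and 17.4% of set 2 (11.4 to 25%), beside 0.933% and 5.16% of leukocytes, and unthinned in 0.663% and 24.3%. Per cell, Wif1 in basal cells of set 2 stood at 19.3 times the leukocyte level.

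The intracellular and secreted feedback inhibitors followed it. Nkd1, which binds Dishevelled, stood at 1.44 and 74.3 CPM (log2 ratio 5.69, 5.10 to 6.32), and Axin2, a scaffold of the beta-catenin destruction complex, at 7.91 and 80.2 CPM (3.34, 2.99 to 3.69). Notum, which removes the lipid of Wnt ligands, stood at 7.38 and 45.9 CPM (2.64), and Znrf3, which removes their receptors, at 11.9 and 59.5 CPM (2.32). In each of these 4 genes 5 cells held 39.1% to 46.1% of the set 2 UMIs.

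Among the transcription factors, Sp5, a Wnt-induced factor, had 41 and 40 UMIs (1.96 and 25.9 CPM, log2 ratio 3.72), with 70.0% of the latter in 5 cells. Tcf7, a partner of beta-catenin, stood at 14.9 and 37.5 CPM (1.33). Tcf4, which the list holds but which encodes an E-protein and not a TCF partner of beta-catenin, stood at 26.2 and 179 CPM (2.77), and without it 8 of 13 genes of the list were higher. Tcf4 and Ccnd1, cyclin D1, at 66.9 and 161 CPM (1.27), were both under the free RNA limit in set 2. Myc (0.31), Sox4 (-0.28), Lgr4 (-0.42), Tcf7l2 (-0.67) and Cd44 (-0.72) were not past 2-fold. The TCF-type motif CTTTGAT, on either strand, was found in the promoter window of Sp5 alone among the 5 of these 9 higher genes with an entry, and in 3.73% of all promoter windows.

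**Figure D3:**
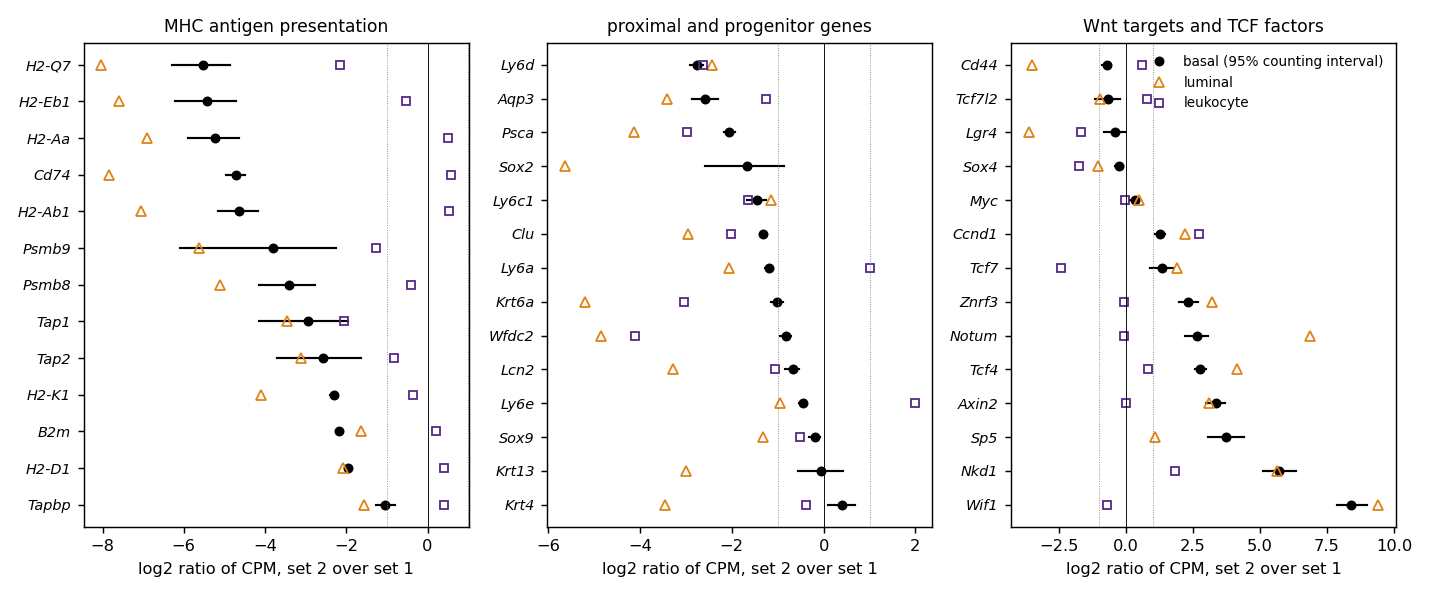
Log2 ratio of CPM in set 2 over set 1 (x axis) for compared genes of the antigen presentation, proximal and Wnt lists. Black points are basal cells with 95% counting intervals, orange triangles luminal cells and purple squares leukocytes, and the dotted lines mark 2-fold. All 13 antigen presentation genes lie at or left of the lower 2-fold line in basal cells, from -5.53 for H2-Q7 to -1.03 for Tapbp.

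To count cells, UMIs of Wif1, Nkd1, Sp5, Axin2, Notum and Znrf3 were summed. At least 2 of them were found after thinning in 1.12% of basal cells of set 1 (0.627 to 1.84%) and 16.7% of set 2 (10.7 to 24.1%), and unthinned in 10.2% and 27.9%. Leukocytes gave 1.49% and 1.29%, luminal cells 0.896% and 63.8%, and stromal cells 26.9% and 35.1%. The basal share of set 2 was thus above that of leukocytes and below that of luminal cells of the same set. In basal cells of set 2 with more luminal than basal keratin it was 28.9% (15.4 to 45.9%), and in the others 11.7% (5.99 to 20%), beside 1.05% of the corresponding cells of set 1. What part luminal RNA in the same droplets had in these values was not tested.

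The reporter and the transgene were higher in basal cells of set 2, as in every other kind of cell, and the reporter split the basal cells into 2 groups. The features named EGFP and ARQ were read as the membrane GFP and hARtg sequences from their names. EGFP stood at 1467 and 5524 CPM, a log2 ratio of 1.91 (1.88 to 1.95), and ARQ at 211 and 550 CPM (1.38, 1.27 to 1.49). Both ratios were larger in the other kinds of cell. For EGFP they were 3.28 in luminal cells, 3.35 in leukocytes and 4.17 in stromal cells. For ARQ they were 3.19, 2.79 and 2.26. After thinning EGFP was found in 27.9% and 81.8% of basal cells, but also in 9.33% and 61.3% of leukocytes (unthinned 44.4% and 94.9% of basal cells). In set 2 most leukocytes thus held a reporter UMI too. ARQ was found in 25.7% and 56.8% of basal cells, beside 1.87% and 18.7% of leukocytes. Of the other genes of that list, Fkbp4, a cochaperone of steroid receptors, had a log2 ratio of 1.02, and the pioneer factor Foxa1 of -0.37.

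A limit at an EGFP level of 3.5 lay above nearly all leukocytes, of which 1 of 706 in set 1 and 2 of 168 in set 2 reached it. It was reached by 200 basal cells of set 1 (14.7%, 12.9 to 16.7%) and 70 of set 2 (51.5%, 42.8 to 60.1%). The cells at or above it are called reporter-high and the rest reporter-low. The median EGFP level of all basal cells was 0 in set 1 and 3.65 in set 2, and of leukocytes 0 and 1.40. Reporter-high basal cells were deeper in both sets, with medians of 16134 and 10774 UMIs against 11182.5 and 6729.

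**Figure D4:**
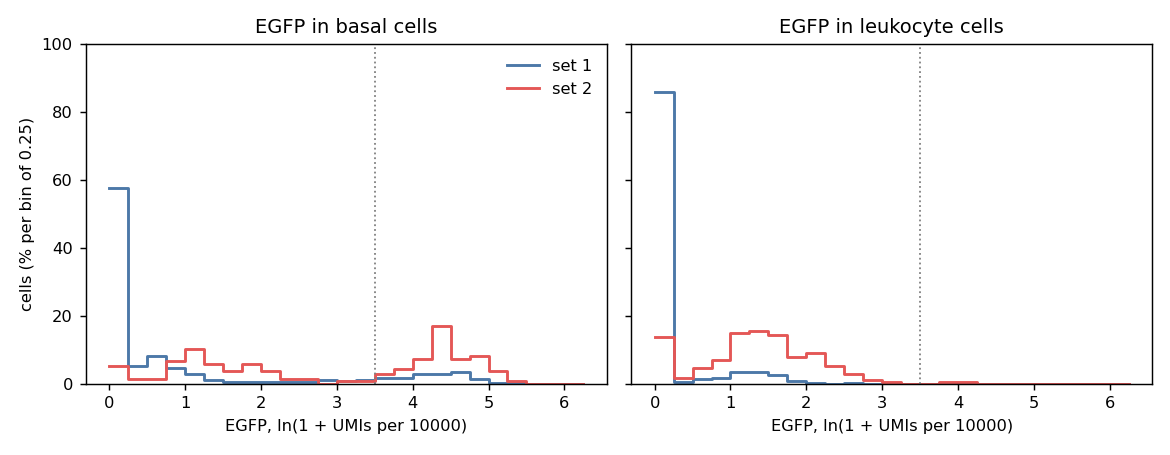
EGFP level per cell (x axis, natural log of 1 plus UMIs per 10000) against the share of cells (y axis, percent per bin of 0.25) in basal cells and in leukocytes of set 1 (blue) and set 2 (red), with the reporter limit of 3.5 dotted. Basal cells of set 2 form a group above the limit (51.5% of them) that leukocytes lack, and most basal cells of set 1 lie at or near 0.

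Within reporter-high basal cells the transgene itself hardly differed between the sets. ARQ stood at 652 CPM in those of set 1 and 666 in those of set 2 (log2 ratio 0.03, -0.10 to 0.16). EGFP, which chose these cells, stood at 7334 and 8418 CPM (0.20). The Wnt genes differed in these cells far more. Wif1 stood at 0.539 and 707 CPM, Nkd1 at 1.08 and 113 CPM and Axin2 at 4.31 and 115 CPM, log2 ratios of 10.36, 6.71 and 4.74. In reporter-low basal cells the log2 ratios of the same 3 genes were 4.11, 2.53 and 1.27, that of Notum was 0.41 and that of Znrf3 was -0.01. These ratios rest on few UMIs near the leukocyte level. The 66 reporter-low cells of set 2 held 46 UMIs of the 6 Wnt genes summed above (80.4 CPM). The 168 leukocytes of set 2 held 87 (64.8 CPM).

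At least 2 thinned UMIs of the 6 Wnt genes were found in 21 of 69 reporter-high cells of set 2 (30.4%, 19.9 to 42.7%) and in 1 of 63 reporter-low ones (1.59%, 0.0402 to 8.53%). In set 1 the shares were 1.52% of reporter-high and 1.05% of reporter-low basal cells. More luminal than basal keratin was held by 25 of the 70 reporter-high and 15 of the 66 reporter-low basal cells of set 2, and luminal cells of set 2 held an EGFP UMI in 98.4% and the Wnt genes in 63.8% after thinning. Within the reporter-high cells of set 2, a split chosen after seeing the data gave the Wnt genes in 10 of 24 cells with more luminal keratin (41.7%, 22.1 to 63.4%) and in 11 of 45 others (24.4%, 12.9 to 39.5%), beside 1.27% of the others in set 1. The part of luminal RNA in the reporter split was not tested. Antigen presentation was lower in set 2 on either side of the limit: class II was found in 48.2% of reporter-high cells of set 1 against 1.45% of set 2, and in 31.9% of reporter-low cells against 0 of 63 (upper bound 5.69%). B2m had a log2 ratio of -2.88 in reporter-high and -2.23 in reporter-low cells, and Ly6d of -2.29 and -2.80.

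**Figure D5:**
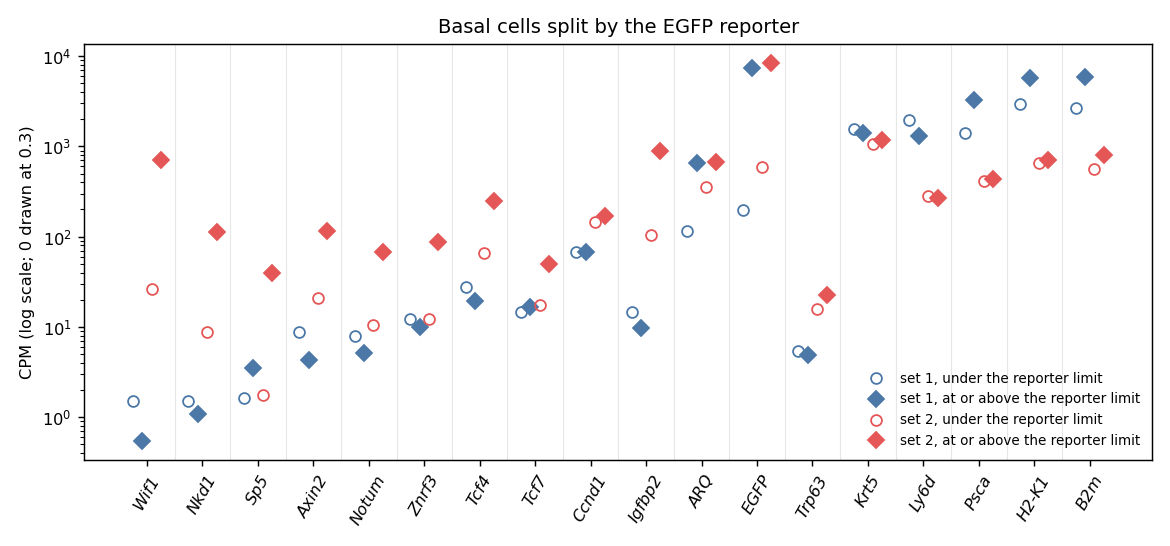
CPM (y axis, log scale) of 18 genes in basal cells under the reporter limit (open circles) and at or above it (filled diamonds), for set 1 (blue) and set 2 (red). Wif1, Nkd1 and Axin2 are high in the reporter-high cells of set 2 (707, 113 and 115 CPM), whereas Ly6d, Psca, H2-K1 and B2m are lower in both groups of set 2 than in either group of set 1.

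Igfbp2, a secreted binding protein of insulin-like growth factors (GRCm38.p6 chr1:72824480-72852474), was also high in reporter-high cells of set 2. Over all basal cells it stood at 13.7 and 597 CPM (log2 ratio 5.44, 5.25 to 5.64), with 67.1% of the set 2 UMIs in 5 cells and a log2 ratio of 4.86 with every cell weighing the same. A UMI was found after thinning in 2.98% of basal cells of set 1 and 16.7% of set 2, beside 1.31% and 0% of leukocytes, and unthinned in 7.36% and 18.4%. In reporter-high cells its log2 ratio was 6.51 and in reporter-low cells 2.85. The receptor Igf1r stood at 88.7 and 87.9 CPM, a log2 ratio of -0.01 (-0.27 to 0.24). Of the 13 compared IGF genes, the kinase gene Mapk13 was the other one past 2-fold on the higher side (1.03, 0.83 to 1.23). Mapk13 was higher in every kind of cell, with log2 ratios of 1.31 in luminal cells, 2.49 in leukocytes and 2.47 in stromal cells. Igfbp5 was lower (-2.50) but under the free RNA limit.

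Few genes of basal identity were past 2-fold. Krt5 and Krt14, which chose the cells, stood at 1536 and 1136 CPM and at 4534 and 4039 CPM. Of the 13 other compared genes of the list, none was 2-fold lower and 2 were higher (beside 5.33% and 6.17% of all compared genes), with a median log2 ratio of -0.35. Krt15 stood at 4538 and 2388 CPM (log2 ratio -0.93) and Krt17 at 3124 and 1899 CPM (-0.72). Trp63, the master regulator of basal cells, was sparse, with 110 UMIs in set 1 and 31 in set 2 (5.27 and 20 CPM, log2 ratio 1.93, 1.30 to 2.51), and was seen after thinning in 1.86% and 6.06% of basal cells and in no leukocyte. Sncg, gamma-synuclein, was the other higher gene, with 24 and 134 UMIs (log2 ratio 6.24) and 52.2% of the latter in 5 cells.

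Attachment genes differed little. Of 12 hemidesmosome and laminin-332 genes, 1 was past 2-fold, Lamb3, a laminin chain (log2 ratio -1.12, -1.38 to -0.88), and the median was -0.44, with the integrin chains Itga6 at -0.28 and Itgb4 at -0.34. Among 12 contractile and matrix genes 4 were higher and 2 lower, but Acta2 and Tagln of smooth muscle had all their set 2 UMIs in 5 cells. Their ratios turned negative, to -1.66 and -3.85, without the cells that held more luminal than basal keratin. Tpm2, a tropomyosin, had a log2 ratio of -1.29 and the matrix protein Thbs1 of -1.34.

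Luminal keratins and junction genes were at similar levels in the basal cells of both sets. None of 13 was past 2-fold, with Krt8 at a log2 ratio of -0.12, Krt18 at -0.11, Krt19 at -0.59 and Epcam at -0.58. Of 11 compared prostate secretory genes 4 were lower and 1 was higher (beside 5.33% and 6.17%). Msmb, a secreted protein of the gland, stood at 483 and 12.3 CPM (log2 ratio -5.30, -6.03 to -4.65), with 54.6% of its set 1 UMIs in 5 cells. Msmb was lower in every kind of cell, with log2 ratios of -7.13 in luminal cells, -3.95 in leukocytes and -4.11 in stromal cells. Mmp7, a matrix protease of glandular epithelium, stood at 745 and 300 CPM (-1.31). Within cells of 3000 to 15000 UMIs the log2 ratio of Apof was 0.29 and the log2 ratio of Defb50 was 0.42.

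Of 12 compared TGF-beta and BMP genes 2 were higher and 1 was lower in set 2, of 8 EGF family genes 1 was higher and none lower, and of 5 Notch genes 1 was higher and 1 lower (beside 6.17% higher and 5.33% lower of all compared genes). Fst, follistatin, which binds activins, stood at 664 and 86.0 CPM (log2 ratio -2.95, -3.21 to -2.70), and a UMI of it was found after thinning in 55.4% and 9.09% of basal cells, beside 2.80% and 2.58% of leukocytes. Fst was lower in every kind of cell, with log2 ratios of -1.46 in luminal cells, -2.57 in leukocytes and -1.68 in stromal cells. Bmp7 stood at 18.4 and 78.9 CPM (2.10, and 1.6 with every cell weighing the same), and Bmp4 had a log2 ratio of 2.83 with 89.7% of its set 2 UMIs in 5 cells. The EGF receptor ligand Areg stood at 84.2 and 262 CPM (1.64), with a log2 ratio of 2.42 in reporter-high and 0.69 in reporter-low cells, while Egfr had -0.66. In the Notch list the transcriptional repressor Hes1 stood at 763 and 353 CPM (-1.11), and Hes6, a related nuclear factor, was higher (4.10, 59.6% of the set 2 UMIs in 5 cells).

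Of 8 compared cell cycle genes 5 were higher and 1 was lower in set 2 (beside 6.17% and 5.33%), and 2 of the 5 stood above the free RNA limit. For the mitotic genes Top2a and Ube2c, 5 cells held 94.3% and 97.7% of the set 2 UMIs, while Pcna, a clamp of DNA replication, was spread over 54 cells (log2 ratio 0.41). Cdkn2b, a cell cycle inhibitor, stood at 17.8 and 86.0 CPM (log2 ratio 2.27, and 1.56 with every cell weighing the same), and Cdkn2a had 45 and 31 UMIs (3.22). Cdkn1b, another inhibitor, was lower (-1.17) but under the free RNA limit.

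Glutathione genes stood on both sides. Gclc and Gclm, the catalytic and modifier subunits of the first enzyme of glutathione synthesis, stood at 91.2 and 376 CPM (log2 ratio 2.04, 1.91 to 2.18) and at 413 and 1050 CPM (1.35). Gsto1, a glutathione transferase, stood at 1639 and 309 CPM (-2.41, -2.54 to -2.28) and had a log2 ratio of -5.33 in luminal cells. Hmox1, which breaks down haem, stood at 204 and 1599 CPM (2.97), but leukocytes of set 2 held more of it per cell than the basal cells did, and its log2 ratio there was 4.0. Of the 17 compared genes of the list 4 were higher (beside 6.17%), 2 of them above the free RNA limit, and 1 was lower (beside 5.33%), with a median of 0.45.

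Stress genes, which dissociation of tissue can induce, gave no single direction. Beside 6.17% higher and 5.33% lower of all compared genes, 3 of 19 immediate early genes were higher, none of them above the free RNA limit (Fos 1.35, Atf3 1.16 and Fosb 1.03), and 1 was lower, Jun, at 1959 and 859 CPM (log2 ratio -1.19). Of 16 heat shock and unfolded protein genes 2 were higher (Trib3 1.47 and Hsph1 1.25) and 1 lower (Nupr1 -1.25), but within cells of 3000 to 15000 UMIs the log2 ratio of Hsph1 was -0.0425 and the log2 ratio of Nupr1 was 0.14. In the glycolysis and hypoxia list 3 of 17 were higher (beside 6.17%), and Adm, adrenomedullin, was the only one of them above the free RNA limit (19.7 and 55.6 CPM, 1.49). Among 10 compared proteases and inhibitors 4 were lower (beside 5.33%) and none higher, including Timp1, a metalloprotease inhibitor (-1.72), and the sheddase Adam8 (-1.83).

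Among genes of at least 50 CPM above the free RNA limit, those with the largest ratios on the higher side included alpha-defensins, gene models with no symbol of their own and hair-type keratins. Defa21 had no UMI in basal cells of set 1 and 431 in set 2, at least 1938-fold higher with the sum of set 1 put at 3 UMIs, and 5 cells held 90.7% of them. Defa20 had 8 and 394 UMIs, and the luminal cells of set 2 carried it at 420 CPM. Reads of these near-identical genes may have been divided among copies. Krt33a and Krt35, hair-type keratins (GRCm38.p6 chr11:100011199-100016212 and chr11:100092192-100096224), had 4 and 345 and 0 and 174 UMIs, in 13 basal cells of set 2 each, and no UMI of Krt33a was found in leukocytes of set 2. The gene model Gm10260 was the widest spread of these, with 7 UMIs in set 1 and 284 in 104 basal cells of set 2, and 3.19 times the leukocyte level per cell. Its log2 ratio was 9.49 in luminal cells, 6.69 in leukocytes (the set 1 sum of 0 put at 3 UMIs) and 7.10 in stromal cells. Defa20, Defa21 and Gm10260 were thus higher in set 2 in every kind of cell and not in basal cells alone.

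Among the lowest ratios not yet named were the gene model Gm12888 (1477 and 1 UMIs, log2 ratio -6.77, -12.08 to -4.29, with 70.5% of the set 1 UMIs in 5 cells), the tetraspanin Tspan33 (-3.92), the ribonuclease Rnase1 (-3.59), the skin protein Dmkn (-3.36) and the cytochrome P450 Cyp2b10 (-3.08). Among the highest under the free RNA limit, Rpl29, a ribosomal protein, stood at 52.6 and 890 CPM in basal cells (log2 ratio 4.08), and its log2 ratio was 4.47 in luminal cells, 3.1 in leukocytes and 4.04 in stromal cells. This difference was thus present in every kind of cell of the 2 libraries. Gpnmb (4.19), Npl (5.14) and Syngr1 (7.41) were likewise high in set 2 without passing the limit.

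Markers of other cell types were summed in the basal cells. The 12 leukocyte markers summed to 2507 CPM in set 1 and 151 in set 2, of which Cd74 made up 2453 and 93.1, and 1 and 6 of the 12 were at 0. The counts at 0 cannot be compared, since the basal cells summed to 20869141 UMIs in set 1 and 1546819 in set 2. The rule also fixed Ptprc at 0 in every basal cell. The 8 fibroblast markers summed to 2402 and 1069 CPM, nearly all of it Dcn (2371 and 984 CPM), a proteoglycan found after thinning in 91.7% and 75% of basal cells but in 5.04% and 7.74% of leukocytes. Endothelial markers summed to 26.5 and 22.0 CPM, smooth muscle markers to 13.8 and 34.9, neuroendocrine markers to 4.46 and 3.23 and urothelial markers to 93.1 and 84.0. Markers of the seminal vesicle summed to 0.0958 CPM in basal cells of set 1 and 69.2 in set 2, and leukocytes of set 2 held 106 CPM of them.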

How the data were processed

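Per the labels, tissue was dissociated with collagenase and TrypLE and run on Chromium 3' v2 chemistry, and the submitters' processing notes name Cell Ranger 3.1.0 and mm10. By the study's methods, reads were counted against mm10 with the mGFP and hARtg sequences added, and potential empty droplets, multiplets and cells with a high mitochondrial share were removed. No doublet caller was run here. The authors deposited a gene-by-cell table of natural log values, ln(1 + UMIs per 10000). Because 100% of the values gave whole UMIs (tolerance 0.001), UMIs per cell were recovered and summed per set over 19320 features, of which 2 had a name used before.

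CPM, exact Poisson and Clopper-Pearson intervals and conditional binomial intervals of ratios were computed in Python 3.11.15 with numpy 2.4.6 and scipy 1.17.1, and figures were drawn with matplotlib 3.10.9. The sum was checked on simulated data. A sum of 0 was put at 3 UMIs in a ratio. Genes past 2-fold with at least 20 CPM in either set were called. Thinning drew 3000 UMIs per cell without replacement. Genes named are list members with the largest ratios or a defining role, and the 15 highest and 15 lowest genes of at least 50 CPM above the free RNA limit and 10 highest under it. The members and lists were chosen with earlier results of these data known, and the gene groups summed per cell, the motifs and any other gene after values were seen. Promoter sequences and gene positions are RefSeq's on GRCm38.p6, the build of mm10. Some list members are counted with their list but not reported singly here.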

Additional observations from a re-analysis of the deposited data

How the results depend on the processing

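No paired analysis was possible because there was 1 library on either side. Of 3291 values recomputed under alternatives, 2068 moved by no more than their counting error or 1.5 times, 1204 moved further and 19 changed sign. With 3 or more UMIs of each keratin as the rule, basal cells were 24.1% of set 1 and 1.76% of set 2, and without cells with more luminal than basal keratin 16.7% and 1.02%. The 338 higher and 292 lower genes (199 and 199 above the free RNA limit) became 149 and 147 (98 and 108) at 50 CPM, 1883 and 954 (602 and 493) with no minimum, 185 and 111 (122 and 69) at 3-fold, and 803 and 1000 (487 and 557) with leukocyte RNA subtracted. Above the limit, reporter-high cells gave 324 higher (of 513) and 261 lower genes, reporter-low cells, an alternative chosen after seeing the data, 127 and 219, and cells of 3000 to 15000 UMIs 94 and 149, with 59 of the 199 higher and 110 of the 199 lower genes shared. Higher genes were 53.7% of those called, 66.4% with no minimum and 43.0% in reporter-low cells.

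Log2 ratios turned sign without cells of more luminal keratin for Acta2 (-1.66), Tagln (-3.85) and Irf7 (0.087), and within 3000 to 15000 UMIs for Acta2 (-2.46), Tagln (-3.12), Apof (0.29), Defb50 (0.42) and Nupr1 (0.14), where the log2 ratio of Hsph1 was -0.0425. They turned in reporter-high cells for 9530053A07Rik (-0.22), Cxcl2 (0.85) and Plat (0.024), in reporter-low cells for Acta2 (-0.69), Tagln (-2.08) and Znrf3 (-0.014), with every cell weighing the same for Isg15 (0.24), and with leukocyte RNA subtracted for Hmox1 (-5.83), Fn1 (-0.61) and Serpinh1 (-0.0061). The cause was not tested. The 136 basal cells of set 2 limit every value, since 5 of them can hold most of a gene's UMIs.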
